A study of Mus musculus with 8 samples.

Results

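The TNF receptor superfamily genes described here are 10 receptor genes of lymphocytes. With earlier results of these data known, they were chosen by name for their roles. Of these, 4 encode receptors by which B cells receive survival or helper signals (Tnfrsf13b, Tnfrsf13c, Tnfrsf17 and Cd40), 4 encode costimulatory receptors of T cells (Cd27, Tnfrsf4, Tnfrsf9 and Tnfrsf18) and 2 are shared more widely (Tnfrsf1b and Fas). Each gene was taken with 10 kb on either side, here called its window, and the windows together held 4216 of the 18684786 CpGs listed in all 4 libraries. The 10 genes are among 21755 protein-coding genes of the autosomes and X. All lie on autosomes.

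The assay was oxidative bisulfite sequencing of whole genomes (WGoxBS), in which an oxidation step before bisulfite is meant to leave 5-methylcytosine as the base that still reads as cytosine. The study's methods describe the protocol as also picking up hydroxymethylated DNA, so the levels given here may hold 5-hydroxymethylcytosine too. The cells came from spleens of C57BL/6J mice aged 6 to 8 weeks, with no genetic change or treatment in any group. They were naive CD4+ T cells (CD62L high, CD44 low, CD25-) and resting CD43- B cells of females and of males, and the study's replicates each pooled cells of several mice. The labels give 2 samples in each of the 4 groups but 1 file per group, so each group is treated here as 1 library. Values therefore carry no SD. The p-values rest on a spread between these 4 libraries only, estimated mostly over many regions together. A very small p thus does not measure how closely the libraries agree at a single place.

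Receptors of this superfamily bind trimeric ligands of the TNF family and pass the signal on through TRAF adaptors to NF-kB, or through death domain adaptors to caspases. In B cells, the receptors for BAFF and APRIL and CD40 support survival and responses to T cell help. In T cells, CD27, OX40, 4-1BB and GITR add to the signal of the T cell receptor. Low CpG methylation at promoters and enhancers often accompanies use of a regulatory element in a cell type, but expression was not measured in the files used here.

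Stretches of CpGs that were low in one cell type lay both over and away from the gene starts. To show some of these, 7 stretches of at most 300 bases are printed from the GRCm38 reference, 5′ to 3′ on the strand of the gene, with every CpG in capitals. They are taken from runs of at least 4 neighbouring CpGs, each under 50% in one cell type with its female and male reads pooled, whose joint level was at least 30 percentage points higher in the other cell type in both sexes, and annotated UTRs were left out. The first 4 were low in B cells and the last 3 low in T cells.
Tnfrsf13b, upstream, chr11:61122753-61123037 (+): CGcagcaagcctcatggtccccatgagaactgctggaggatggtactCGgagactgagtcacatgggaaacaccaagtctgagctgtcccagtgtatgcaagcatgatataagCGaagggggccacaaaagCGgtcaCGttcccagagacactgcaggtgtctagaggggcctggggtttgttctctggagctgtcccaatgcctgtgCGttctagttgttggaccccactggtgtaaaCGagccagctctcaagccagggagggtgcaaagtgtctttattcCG
Tnfrsf13b, before the start, chr11:61126611-61126750 (+): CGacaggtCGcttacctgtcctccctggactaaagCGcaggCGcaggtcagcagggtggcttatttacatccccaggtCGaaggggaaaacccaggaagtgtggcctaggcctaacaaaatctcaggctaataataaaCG
Tnfrsf17, coding exon and intron, chr16:11315290-11315476 (+): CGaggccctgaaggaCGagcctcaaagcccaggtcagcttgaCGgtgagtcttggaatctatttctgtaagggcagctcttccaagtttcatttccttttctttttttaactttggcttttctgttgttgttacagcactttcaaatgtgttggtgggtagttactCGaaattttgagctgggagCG
Cd40, intron, chr2:165061665-165061892 (+): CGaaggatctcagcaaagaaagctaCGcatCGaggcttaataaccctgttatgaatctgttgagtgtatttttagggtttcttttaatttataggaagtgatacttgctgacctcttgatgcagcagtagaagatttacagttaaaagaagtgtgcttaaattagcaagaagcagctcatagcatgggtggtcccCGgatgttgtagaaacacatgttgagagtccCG
Tnfrsf4, before the start, chr4:156013623-156013782 (+): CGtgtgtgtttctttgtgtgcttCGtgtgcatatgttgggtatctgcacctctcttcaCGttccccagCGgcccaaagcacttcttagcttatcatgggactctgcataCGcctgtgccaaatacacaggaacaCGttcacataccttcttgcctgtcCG
Between Tnfrsf4 and Tnfrsf18, partly in exons of Gm16008 and Gm37090, chr4:156021986-156022235 (+): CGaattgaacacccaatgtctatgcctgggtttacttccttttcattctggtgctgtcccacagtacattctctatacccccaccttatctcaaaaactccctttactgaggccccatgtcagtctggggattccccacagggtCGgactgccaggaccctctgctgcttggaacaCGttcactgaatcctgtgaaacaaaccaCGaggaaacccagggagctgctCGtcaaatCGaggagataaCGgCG
Tnfrsf9, intron, chr4:150924365-150924651 (+): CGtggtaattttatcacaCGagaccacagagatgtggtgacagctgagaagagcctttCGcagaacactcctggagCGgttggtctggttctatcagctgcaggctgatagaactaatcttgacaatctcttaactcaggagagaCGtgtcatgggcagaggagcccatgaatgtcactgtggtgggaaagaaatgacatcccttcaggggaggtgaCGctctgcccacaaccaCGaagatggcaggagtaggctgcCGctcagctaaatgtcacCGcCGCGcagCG

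Over the 8 CpGs of the upstream Tnfrsf13b stretch, B cells had 6.36% of reads methylated in the female library (95% Wilson interval 3.59% to 11%) and 6.17% in the male one (3.39% to 11%). The T cell values were 96.4% (92.8% to 98.3%) for the female and 96.1% (92.5% to 98.0%) for the male library. With female and male reads pooled, its single CpGs were at or under 18.6% in B cells and at or above 91.5% in T cells. In the Cd40 stretch 0 of 103 reads in female B cells and 0 of 77 in male B cells were methylated. Where 0 reads were methylated, the limit given here and below is 3 divided by the reads, here 2.91% and 3.90%. The Wilson intervals reach higher, to 3.60% and 4.75%. In T cells the level of the Cd40 stretch was 53.4% in the female and 70.3% in the male library. The Tnfrsf4 stretch before the start was the mirror image, with 91.8% and 92.5% in female and male B cells and 8.00% and 6.67% in T cells. In the stretch between Tnfrsf4 and Tnfrsf18 female T cells had 0 of 168 reads methylated, which allows up to 1.79%, and male T cells 1.08%, whereas B cells were at intermediate levels of 51.4% and 41.6% and single CpGs of the pooled B cell reads ranged from 11.1% to 84.8%. Here and below, reads of a region are summed over its CpGs, so a read that covers several CpGs counts at each. Intervals and limits treat these counts as independent, so they may be too narrow, and they cover counting error alone.

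The member windows were read at about the depth of the whole libraries, which held between 280919817 and 354634149 reads at CpGs. The median read count per CpG in the 10 windows ran from 12 to 20 over the libraries. Male B cells were the shallowest library. Mitochondrial CpGs, where no methylation is presumed, read as methylated at 0.271% and 0.727% in the female and male B cell libraries and at 0.0733% and 0.0709% in T cells, so the background of both B cell libraries was above that of both T cell libraries by less than 1 point. As a check of the labels, the promoters of all 4 B cell marker genes (Cd79a, Cd79b, Ms4a1, Blk) were less methylated in B cells by 29.4 to 81.5 points, and those of all 5 T cell marker genes (Cd3d, Cd3e, Cd3g, Cd4, Lck) less methylated in T cells by 62.4 to 92.1 points. Both CD8 genes were also lower in T cells, at 56.1% and 57.2% in female and male T cells for Cd8a and at 29.2% and 29.7% for Cd8b1, with B cells at 84.7% to 91.6%, although CD8a+ cells had been depleted. None of 4 regulatory T cell, 5 myeloid or 4 natural killer marker promoters was called by edgeR or limma, where edgeR called 1.37% of all promoters. With differences under 20 points, however, 4, 3 and 2 of them passed edgeR's adjusted p, against 19.9% of all promoters. The same numbers passed an unadjusted p under 0.05. Over windows, 2 regulatory T cell, 0 myeloid and 2 natural killer genes were called by either tool, against 17% of all windows. In these lists 3, 4 and 3 windows passed edgeR's adjusted p alone (and the same numbers an unadjusted p under 0.05), against 39.8% of all windows. Of those 4 myeloid windows, 2 were higher in B cells and 2 higher in T cells. The regulatory T cell promoters differed by 1.76 to 19.3 points and the windows by 1.52 to 13.6 points, all lower in T cells. The part of other cells in the member differences was not tested.

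The design asks first whether the receptors that B cells use were less methylated in B cells and those that T cells use less methylated in T cells. The 4 T cell costimulatory genes all had lower methylation over the whole window in T cells, by 8.06 to 32.0 points. Of the 4 B cell survival genes, Tnfrsf13b and Tnfrsf13c had lower methylation in B cells, by 6.49 and 16.1 points, while Tnfrsf17 and Cd40 differed by less than 1 point in read-weighted levels. Tnfrsf1b and Fas went with the T cell genes. Counts of methylated and unmethylated reads were fitted with edgeR's quasi-likelihood test over all 21611 windows with enough reads. A window was called at a Benjamini-Hochberg adjusted p under 0.05 and a difference of at least 5 points. The main fit held cell type and sex, whereas fits that left out 1 library held cell type alone. Those fits thus differ from the main one by more than the library.

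In all, 8 of the 10 windows were called, against 17% of all windows tested. The directions have very unequal backgrounds: 6 were higher in B cells, against 16.5% of all windows, and 2 were higher in T cells, against 0.514%. No further member passed when the minimum difference was dropped, so 8 passed the adjusted p alone, against 39.8% of all windows. Over the 4 B cell genes the median of B minus T was -3.22 points and over the 4 T cell genes 18.4 points, beside 1.75 points over all windows. The windows of Tnfrsf4 and Tnfrsf18 overlap, so these are not separate measurements of the region between them.

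**Figure D1:**
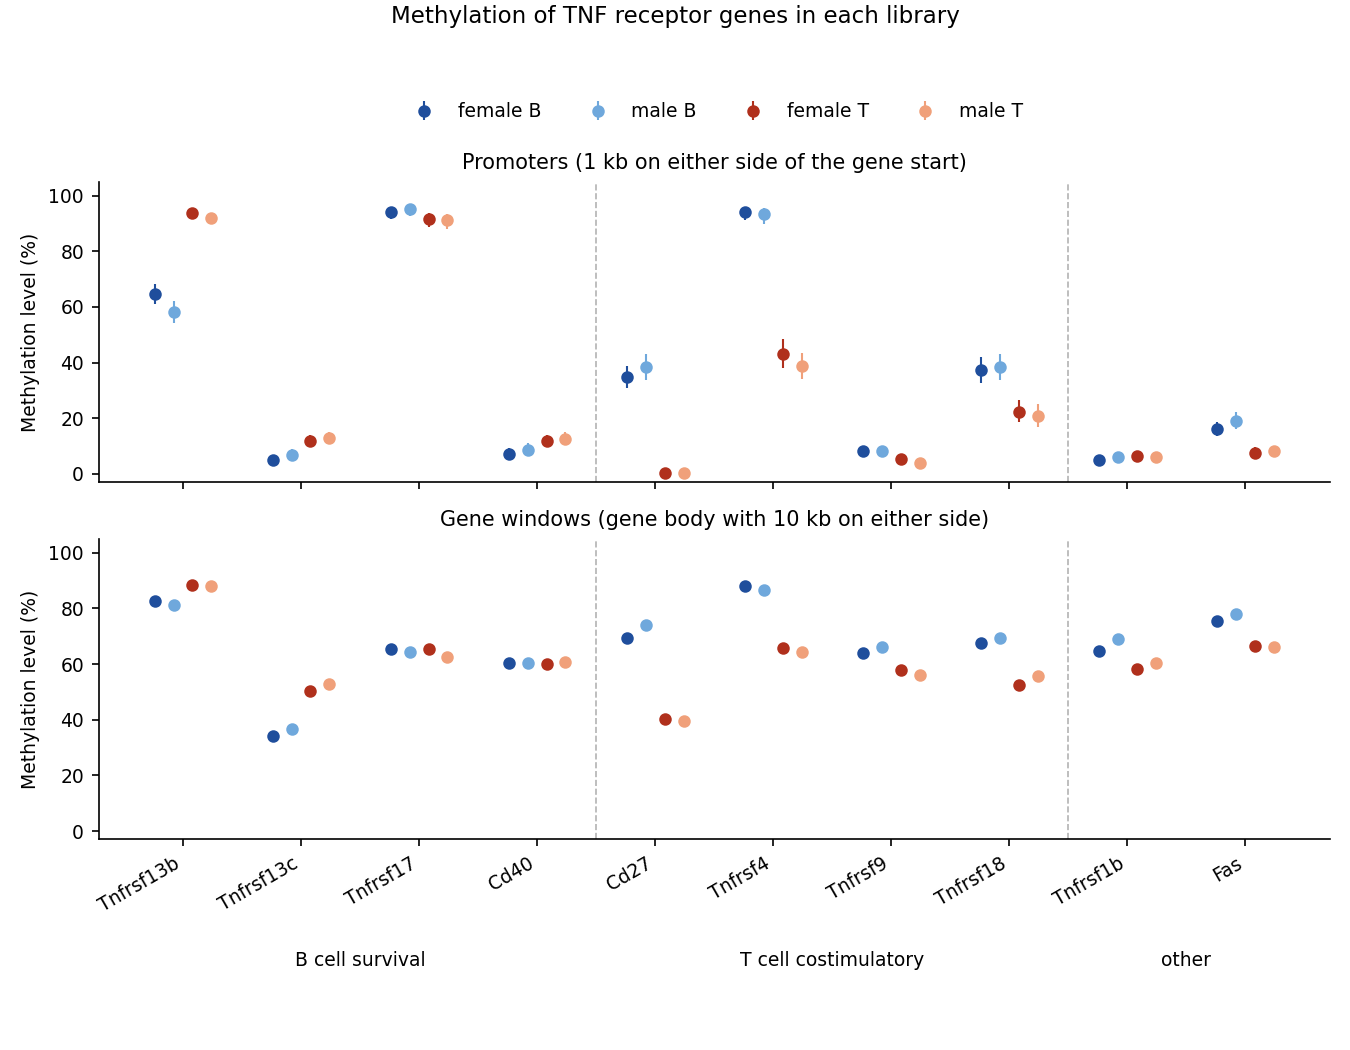
Methylation level (%, vertical axis) of each member gene at its promoter (upper panel) and over its window (lower panel) in the 4 libraries, with 95% Wilson intervals of counting error as bars. The 2 libraries of a cell type sit close together, and B cells (blue) stand below T cells (red) at Tnfrsf13b and Tnfrsf13c and above them at Cd27, Tnfrsf4 and Tnfrsf18.

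Among the B cell genes, Tnfrsf13c (chromosome 15, 82221743 to 82224369, minus strand) showed the widest difference over its window. It encodes the BAFF receptor, on which survival of mature B cells depends. Its window was methylated at 34.0% in female B cells, 36.6% in male B cells, 50.2% in female T cells and 52.7% in male T cells (adjusted p = 2.33e-15, edgeR). Both B cell libraries were well below both T cell libraries. Shisa8, Gm49503 and Cenpm also lie in this window in whole or in part, so the values are of shared DNA. All 6 runs low in B cells in this window lay outside the Tnfrsf13c gene. The window of Tnfrsf13b (chromosome 11, 61126755 to 61149372, plus strand), the gene of TACI, which binds BAFF and APRIL, was at 82.6% and 81.1% in B cells, female and male, and at 88.5% and 88.2% in T cells (adjusted p = 1.18e-10). Most of that difference lay upstream, where the 10 kb before the gene were at 74.7% and 70.9% in B cells and 94.0% and 94.2% in T cells. Over the gene body alone it was -4.41 points, under the minimum for a call.

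Tnfrsf17 (chromosome 16, 11313812 to 11320074, plus strand) encodes BCMA, the receptor of antibody-secreting cells. Over its window the read-weighted levels of the cell types overlapped, with 65.3% and 64.3% in female and male B cells and 65.5% and 62.7% in T cells (adjusted p = 0.738). As unweighted means over CpGs they did not overlap, at 62.7% and 62.3% in B cells and 66.4% and 65.4% in T cells, so that B minus T turned from 0.764 to -3.37 points. Its parts went in opposite directions. The gene body was at 74.1% and 69.6% in B cells against 84.3% and 83.6% in T cells, a difference of -12.1 points that was called when gene bodies were fitted alone (adjusted p = 3.70e-05). The 10 kb before it were higher in B cells by 5.02 points and the 10 kb after it by 5.76 points. Cd40 (chromosome 2, 165055627 to 165072948, plus strand), the receptor for CD40 ligand on activated T cells, was level over its window, with all 4 libraries between 60.2% and 60.6% (adjusted p = 0.985).

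The T cell genes were led by Cd27 (chromosome 6, 125232622 to 125237010, minus strand), whose product is already present on naive T cells and binds CD70. Its window was at 69.5% in female B cells, 74.0% in male B cells, 40.1% in female T cells and 39.4% in male T cells (adjusted p = 1.86e-28). The whole gene lies within Vamp1, a synaptobrevin gene of the opposite strand, and part of the window also within Tapbpl, so the values are of shared DNA. The gene body stood out, with 62.6% and 62.5% in B cells against 8.43% and 6.84% in T cells. Tnfrsf4 (chromosome 4, 156013843 to 156016612, plus strand) encodes OX40, which appears on T cells after activation. Its window was at 88.1% and 86.5% in B cells, female and male, and at 65.7% and 64.4% in T cells (adjusted p = 2.06e-27). The neighbouring Tnfrsf18 (chromosome 4, 156026164 to 156028895, plus strand), the gene of GITR, which is abundant on regulatory T cells and low on naive ones, was at 67.7% and 69.5% in B cells and at 52.5% and 55.7% in T cells (adjusted p = 4.28e-13). Its own gene body had a B minus T of 12.5 points in the female pair and 0.633 points in the male pair, a mean of 6.55 points, which was not called when gene bodies were fitted alone (adjusted p = 0.0990), while the 10 kb before it differed by 24.3 points.

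Tnfrsf9 (chromosome 4, 150914562 to 150946102, plus strand), the gene of the activation-induced receptor 4-1BB, had the narrowest difference of the T cell genes. Its window was at 64.0% and 66.1% in B cells, female and male, and at 57.9% and 56.1% in T cells (adjusted p = 5.01e-07), and the call was lost without the male T cell library (7.15 points, adjusted p = 0.0517) but kept there with X removed from the fit (adjusted p = 0.0309). Tnfrsf1b (chromosome 4, 145213463 to 145246870, minus strand) encodes the second TNF receptor, which lacks a death domain. It was at 64.6% and 69.0% in B cells and 58.1% and 60.4% in T cells (adjusted p = 6.39e-06), and lost its call without the female T cell library (6.40 points, adjusted p = 0.138) or the male one (8.68 points, adjusted p = 0.0534). With X removed it was lost without the female T cell library alone (adjusted p = 0.0949). Fas (chromosome 19, 34290666 to 34327772, plus strand), the death receptor that removes activated lymphocytes, was at 75.6% and 78.1% in B cells and 66.6% and 66.2% in T cells (adjusted p = 2.53e-10).

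**Figure D2:**
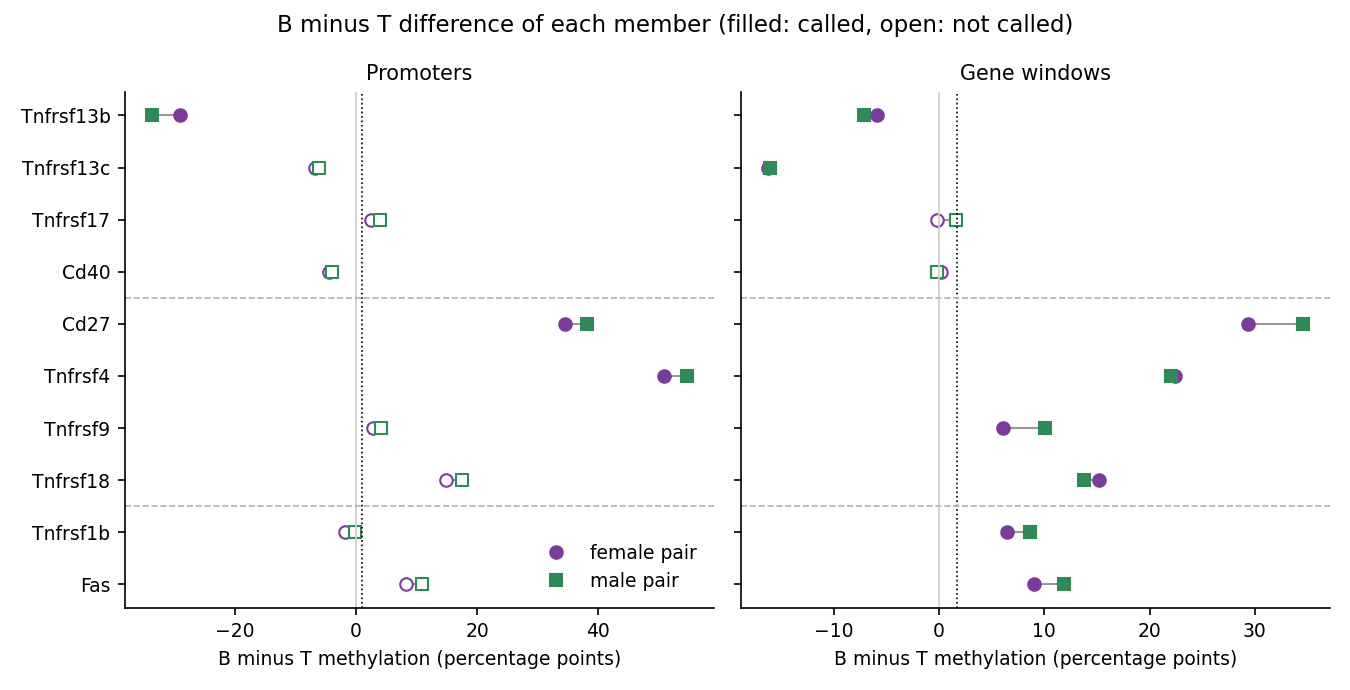
B minus T methylation difference (percentage points, horizontal axis) of each member at its promoter (left) and over its window (right), with 1 point for the female pair of libraries and 1 for the male pair, filled where the gene was called. Dotted lines mark the median over all genes, 0.970 points at promoters and 1.75 points over windows, and in each gene the female and male points lie close together.

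At the promoter, taken as 1 kb before and 1 kb after the start of the gene, 3 of the 10 members were called at a difference of at least 20 points, against 1.37% of 20501 promoters. Tnfrsf4 and Cd27 were higher in B cells, as were 0.956% of all promoters, and Tnfrsf13b was higher in T cells, as were 0.41%. A further 5 members passed the adjusted p with smaller differences, so that 8 passed it in all, against 19.9% of promoters. With limma 4 passed, which were the called promoters and Fas, but limma's share over all promoters was not counted. The further 5 (Tnfrsf13c, Cd40, Tnfrsf9, Tnfrsf18 and Fas) each lost the adjusted p whichever library was left out, at 0.0593 to 0.494 in edgeR. With X removed from those fits Tnfrsf18 and Fas kept it in all 4, while Tnfrsf13c and Tnfrsf9 lost it in 2 and Cd40 in 4. Medians of B minus T were -5.33 points for the B cell genes and 26.3 points for the T cell genes, beside 0.970 points over all promoters.

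Among the called promoters the levels were of 3 kinds. With limma their adjusted p was 0.00205 (Tnfrsf4), 0.000546 (Cd27) and 0.00599 (Tnfrsf13b), and the values below are of edgeR. Tnfrsf4 was nearly fully methylated in B cells and partly in T cells, with 94.1% in female B cells, 93.2% in male B cells, 43.2% in female T cells and 38.7% in male T cells, a difference of 52.7 points (adjusted p = 2.13e-58). Cd27 was unmethylated in T cells and partly methylated in B cells, with 34.7% and 38.3% in female and male B cells and 0.173% and 0.180% in T cells, a difference of 36.3 points (adjusted p = 2.14e-79). Tnfrsf13b was partly methylated in B cells and nearly fully in T cells, with 64.8% and 58.3% in B cells and 93.9% and 92.0% in T cells (adjusted p = 2.54e-32). When 1 library was left out this call was lost without the female T (adjusted p = 0.0912), male B (0.0510) or male T cell library (0.0707). With the X chromosome removed from the fit it was kept in all 4 such fits, the largest adjusted p being 3.67e-05.

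The narrower the region around these starts, the wider the difference was at Tnfrsf4 and Tnfrsf13b. Within 500 bases of the Tnfrsf4 start, B cells were at 92.9% and 93.3% and T cells at 25.1% and 18.9%. Within 500 bases of the Tnfrsf13b start, B cells were at 54.0% and 44.3% and T cells at 93.0% and 91.0%. At Cd27 the same narrowing lowered the B cell level, to 24.0% and 27.8%, while T cells had 0.00% and 0.388%, so the B cell methylation there lay mostly off the start itself.

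The other promoters differed by less than 20 points. Tnfrsf18 had 37.3% and 38.3% in female and male B cells and 22.4% and 20.8% in T cells (16.2 points, adjusted p = 2.48e-05 with edgeR and 0.0608 with limma). Fas had 16.0% and 19.0% in B cells and 7.69% and 8.07% in T cells (9.61 points, adjusted p = 9.16e-06). Tnfrsf13c (5.18% and 6.78% in B cells, 12% and 12.9% in T cells, adjusted p = 0.000279) and Cd40 (7.31% and 8.75% in B cells, 11.8% and 12.7% in T cells, adjusted p = 0.0484) were at low levels in all libraries, with B cells below T cells. Within 500 bases of the Fas start all 4 libraries were at or under 1.34%, and within 500 bases of the Tnfrsf18 start B cells were at 12.2% and 7.01% and T cells at 4.56% and 3.19%.

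Tnfrsf17 was the one member with a promoter over 91% in every library, at 94.0% and 95.2% in B cells and 91.5% and 91.2% in T cells, and its difference of 3.23 points did not pass (adjusted p = 0.0818). Tnfrsf1b had between 4.83% and 6.59% in the 4 libraries (adjusted p = 0.583). Tnfrsf9 had 8.18% and 8.17% in B cells and 5.32% and 4.01% in T cells (3.52 points, adjusted p = 0.0174). Its annotated gene start, however, lies in a CpG-rich region next to the start of Park7, which encodes a protein of oxidative stress defence, and belongs to 1 transcript. The starts of the transcripts that the annotation tags as principal lie 5628, 10744 and 13437 bases further on. Within 500 bases of these, B cells had 91.8% and 88.2%, then 88.0% and 87.4%, then 9.09% and 13.2%, and T cells had 92.0% and 93.4%, then 57.3% and 54.9%, then 11.1% and 6.13%. Of the 3 principal starts, the middle one alone had both T cell libraries more than 10 points below both B cell libraries.

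To locate the differences, 1-kb tiles were tested over the genome, and a tile was called at an adjusted p under 0.05 and at least 20 points. Of 311 tiles in the member windows, counted once, 64 (20.6%) were called, against 3.17% of 1530528 tiles, and 45 were higher in B cells (background 2.36%) and 19 higher in T cells (background 0.812%). The directions divided by role: 17 of 120 tiles in the windows of the B cell genes were called and all 17 were higher in T cells, whereas 33 of 102 tiles in those of the T cell genes were called and 32 of these were higher in B cells. In the windows of Tnfrsf1b and Fas 14 of 89 were called, 13 of them higher in B cells. When each library was left out in turn, 49 of the 64 tiles were called every time. Each of the tiles named in the next 3 paragraphs is among these 49.

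Tnfrsf17 and Cd40, whose windows were not called as a whole, had 2 and 1 called tiles. In Tnfrsf17 the largest difference lay in an intron, centred 2689 bases past the start (chr16:11316001-11317000), with 41.6% in female B cells, 42.1% in male B cells, 87.8% in female T cells and 86.3% in male T cells (adjusted p = 5.08e-26). In Cd40 1 tile of 35 was called, in an intron and centred 5874 bases past the start (chr2:165061001-165062000), at 31.2% and 28.4% in B cells and 59.6% and 66.8% in T cells (adjusted p = 1.45e-09). In Tnfrsf13b the widest tile was centred at -3254 bases from the start (chr11:61123001-61124000), at 30.2% and 40.5% in B cells and 96.9% and 98.4% in T cells. Tnfrsf13c had 10 of 22 tiles called, of which 2 overlapped the gene body and the others lay on both sides of the gene. Its widest was centred at -5132 bases from the start, in the annotated gene Gm49503 (chr15:82229001-82230000), at 29.9% and 40.1% in B cells and 93.4% and 94.0% in T cells (adjusted p = 1.47e-59).

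**Figure D3:**
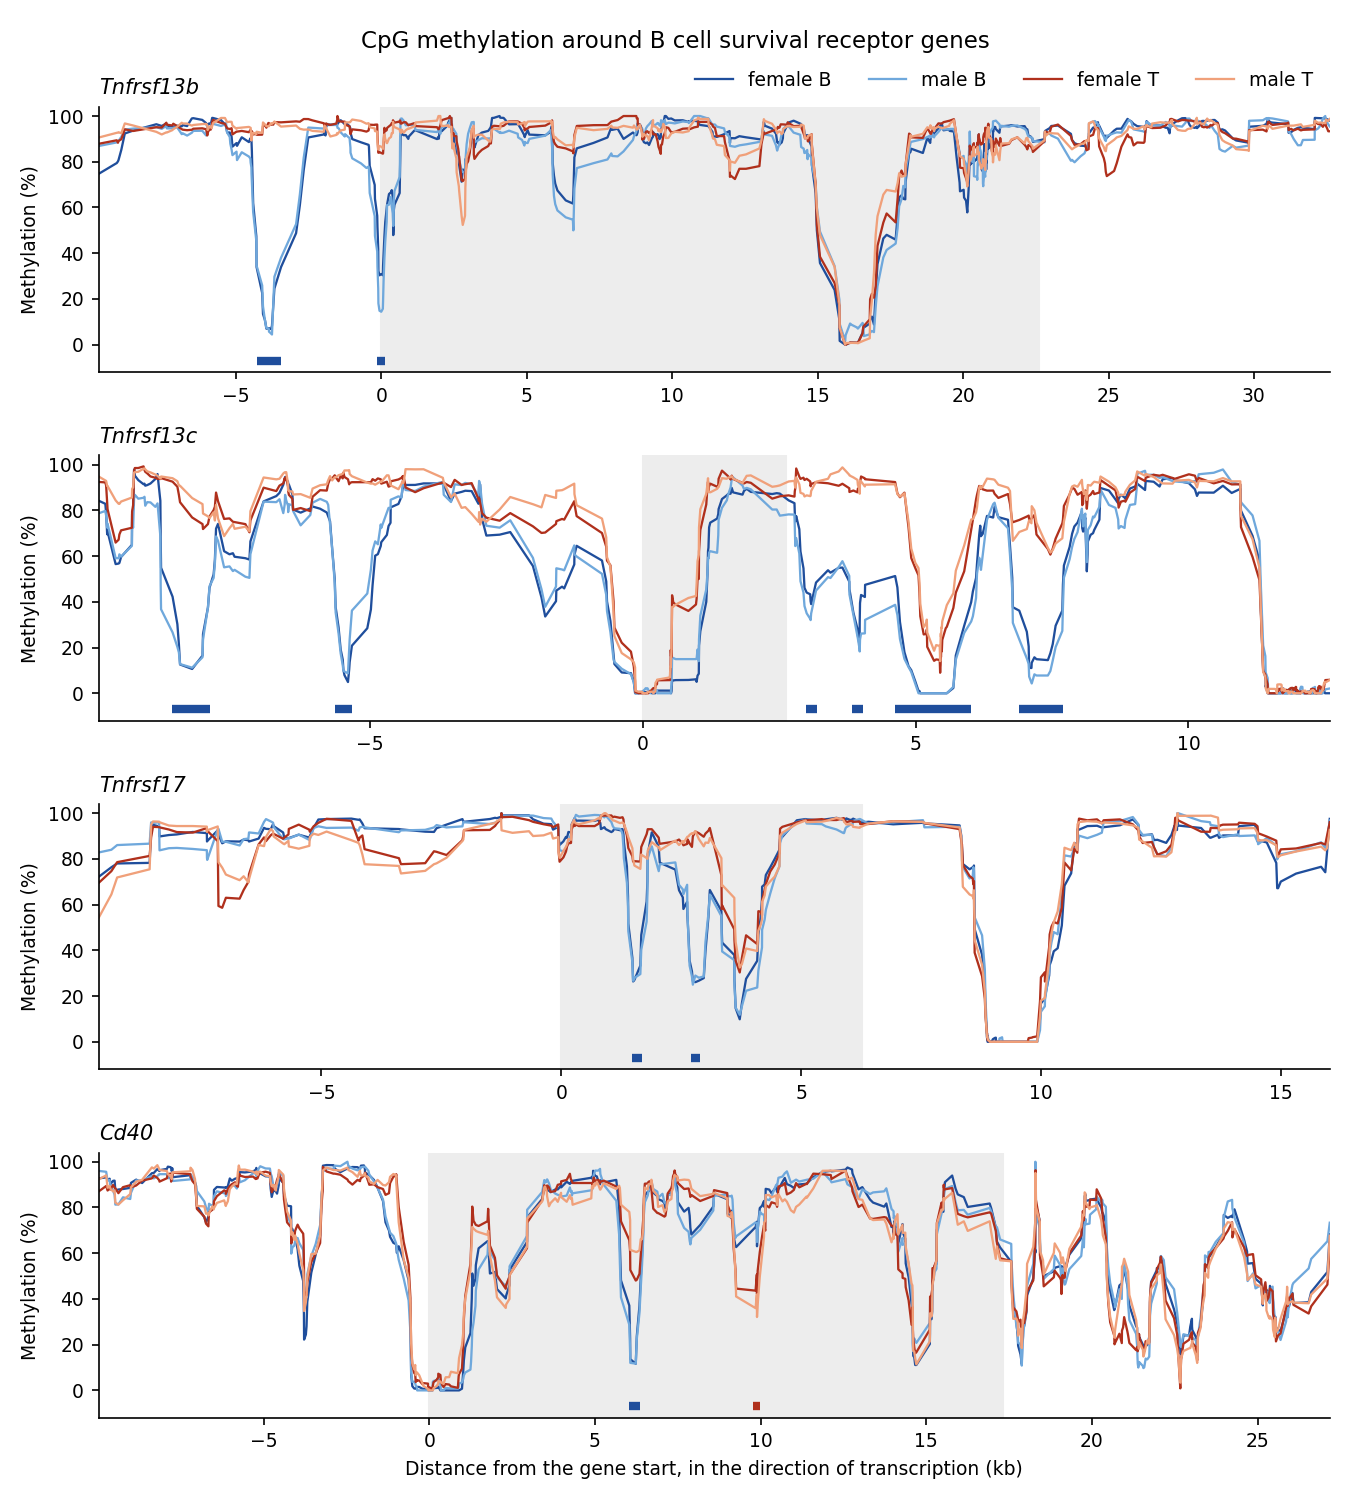
Methylation (%, vertical axis) along the windows of the B cell survival genes against distance from the gene start in kb, each line being 1 library as a running level over 7 neighbouring CpGs, with the gene body shaded and blue or red bars under the lines marking runs low in B or in T cells, the shortest widened to be seen. B cells (blue lines) fall away from T cells before the start and over the start of Tnfrsf13b, on both sides of Tnfrsf13c, within Tnfrsf17 and at 1 place in Cd40. Cd40 also has 1 red bar, for a run low in T cells.

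Of the T cell genes, Cd27 had the largest share of called tiles of the 10 members, 16 of 22, and all 16 were higher in B cells. The widest covered its last exons (chr6:125233001-125234000), at 93.5% in female B cells, 90.4% in male B cells, 18.9% in female T cells and 14.2% in male T cells (adjusted p = 1.02e-79). The tile over the start (chr6:125237001-125238000) had 35.2% and 35.0% in B cells and 0 of 259 reads in female T cells, which allows up to 1.16%, and 0.372% in male T cells. In Tnfrsf4 the widest difference was at the far upstream edge of the window, in the preceding gene Sdf4 (chr4:156004001-156005000), at 96.3% and 95.8% in B cells and 14.9% and 13.4% in T cells (adjusted p = 1.48e-40). The window thus includes a difference inside a neighbour, and which gene it belongs to was not tested. Tnfrsf4 and Tnfrsf18 shared 3 called tiles between them, of 7 and 5 called in their windows. The widest of these (chr4:156021001-156022000) was at 67.2% and 72.9% in B cells and 3.21% and 9.35% in T cells, a difference of 63.8 points (adjusted p = 1.60e-36).

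Tnfrsf9 and Tnfrsf1b held differences of both signs. In Tnfrsf9 7 tiles were higher in B cells, led by an intronic tile 25939 bases past the start (chr4:150940001-150941000) with 72.1% and 70.9% in B cells and 14.0% and 11.2% in T cells (adjusted p = 1.61e-40). A single tile 5939 bases past the start (chr4:150920001-150921000), which holds the first of the principal starts, went the other way, with 56.8% and 58.4% in B cells and 89.3% and 89.0% in T cells (adjusted p = 3.14e-17). It holds a run of 6 CpGs (150920862 to 150920928) at 21.2% and 27.1% in B cells and 91.7% and 87.2% in T cells. Within 500 bases of that principal start, B cells were at 91.8% and 88.2% and T cells at 92.0% and 93.4%. These tiles also lie within Camta1, a transcription factor gene that overlaps Tnfrsf9. In Tnfrsf1b 7 tiles were higher in B cells, of which the widest lay in an intron 10369 bases past the start (chr4:145236001-145237000), at 41.1% and 27.7% in B cells and 2.32% and 2.61% in T cells (adjusted p = 8.78e-30). Another intronic tile 13369 bases past the start (chr4:145233001-145234000) was unmethylated in B cells alone, with 0 of 98 and 0 of 85 reads, which allows up to 3.06% and 3.53%, and 40% and 47.2% in T cells (adjusted p = 1.09e-20). In Fas 6 of 41 tiles were called, all in introns and all higher in B cells, and the widest (chr19:34299001-34300000) was at 88.9% and 87.4% in B cells and 9.76% and 8.00% in T cells (adjusted p = 1.18e-39).

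**Figure D4:**
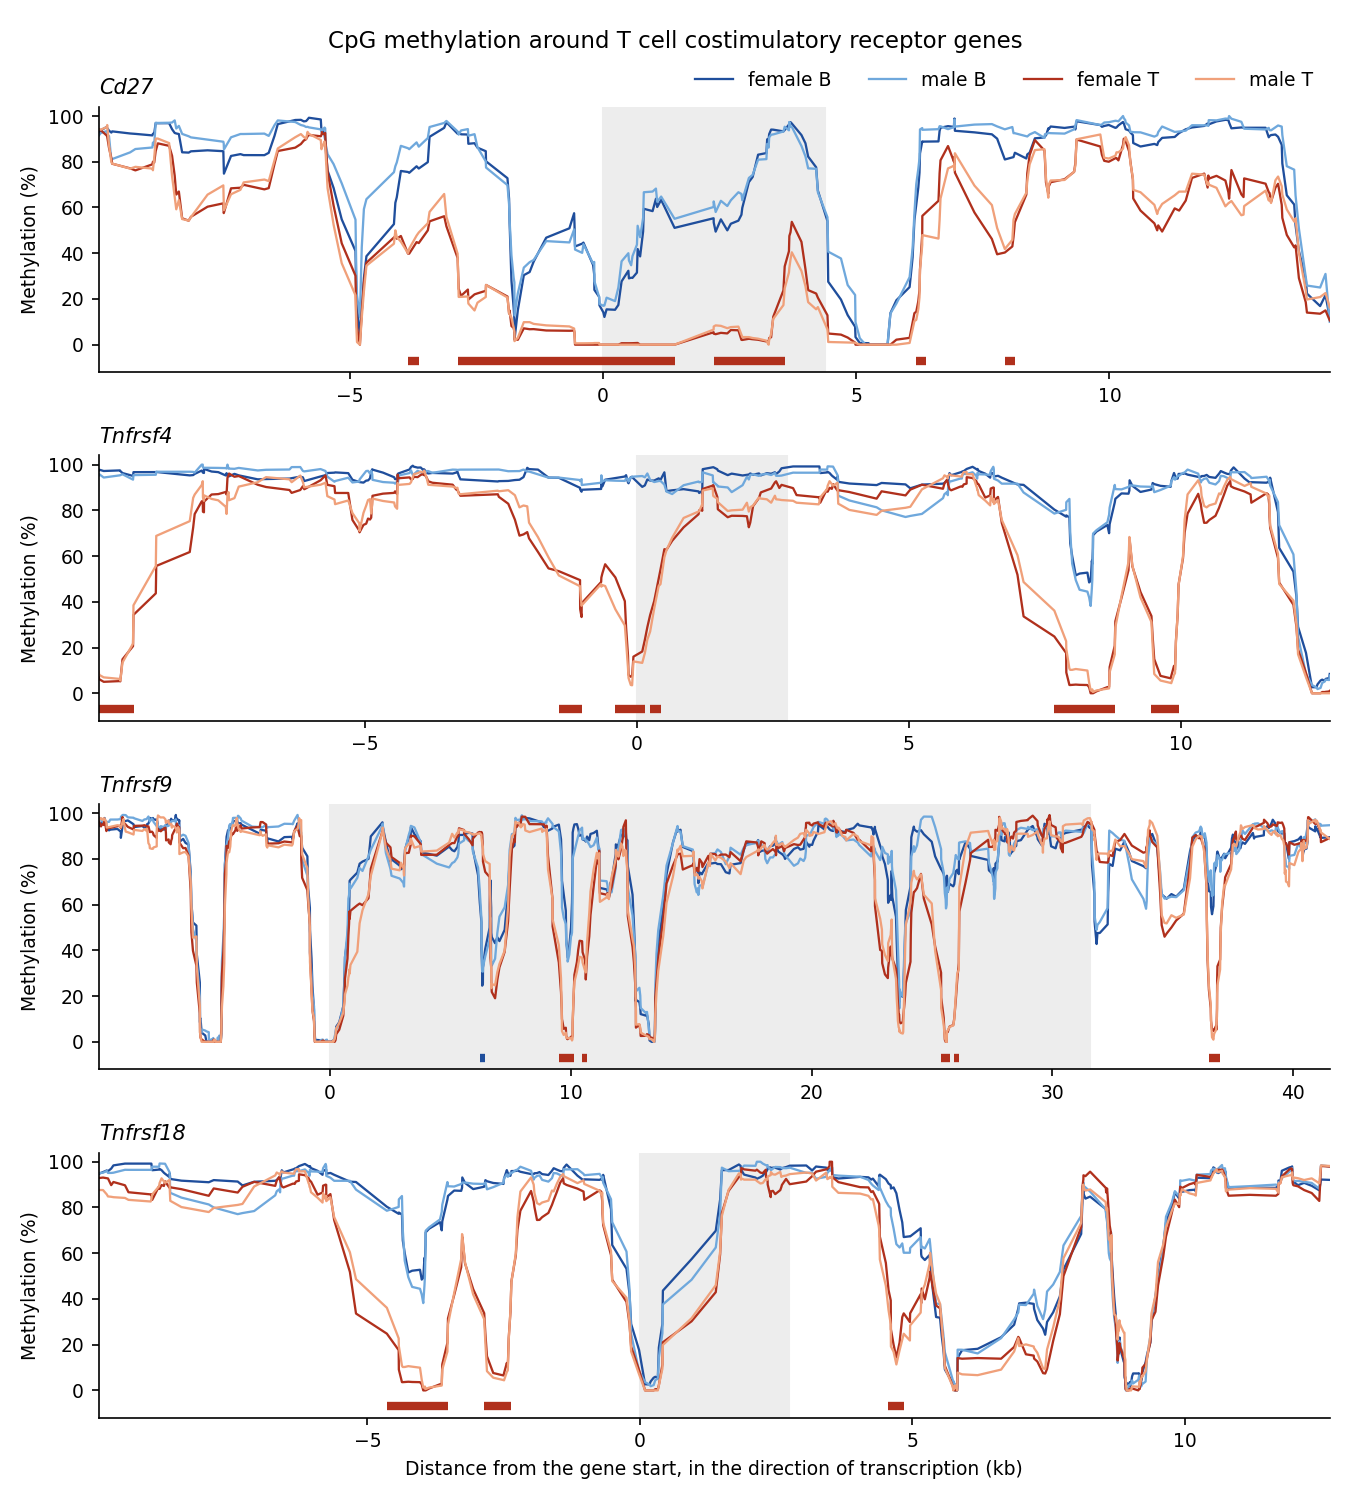
Methylation (%, vertical axis) along the windows of the T cell costimulatory genes against distance from the gene start in kb, drawn as for the B cell genes, with runs low in T cells as red bars and the run low in B cells as a blue bar. T cells (red lines) are near 0% across the start and first part of Cd27, dip at the start of Tnfrsf4 and between Tnfrsf4 and Tnfrsf18, and form narrow troughs within Tnfrsf9, where B cells have 1 short trough of their own.

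Read at single CpGs, the same division by role was seen. A CpG was counted where all libraries had at least 10 reads and both libraries of one cell type exceeded both of the other by at least 30 points, which is a description with no test. In the windows of the B cell genes 113 of 1297 CpGs were higher in T cells and 5 higher in B cells. In those of the T cell genes 138 of 1107 were higher in B cells and 9 higher in T cells. Over all autosomal CpGs with those reads, 1.23% were higher in B cells and 0.557% higher in T cells. As shares, 8.71% of CpGs at the B cell genes were higher in T cells and 0.39% higher in B cells, against 0.81% and 12.5% at the T cell genes. Per member, the share that differed in either direction was highest in Cd27 (27.3%) and Tnfrsf13c (20%) and lowest in Cd40 (3.47%).

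The member windows held 13 runs low in B cells and 25 low in T cells, each run counted once. The windows of the B cell genes had 11 runs low in B cells and 1 low in T cells, and those of the T cell genes 1 low in B cells and 17 low in T cells. By window, 6 of the 10 members held a run low in B cells, against 17.2% of all protein-coding genes, and 7 held one low in T cells, against 27.6%. The longest was in Cd27, where 53 consecutive CpGs over 4285 bases reached from the first part of the gene to beyond its start, at 46.4% in female B cells, 50.7% in male B cells, 5.65% in female T cells and 5.74% in male T cells. In Tnfrsf13c, 32 CpGs over 1396 bases past the end of the gene were at 4.35% and 3.66% in B cells and 38.9% and 44.6% in T cells. Every other run in the member windows had at most 21 CpGs.

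Deep runs also lay away from the promoters. The longest Fas run, 7 CpGs in an intron 8649 bases past the start, was at 81.2% and 82.9% in B cells and 8.70% and 6.61% in T cells, while within 500 bases of the Fas start all libraries were at or under 1.34%. The Cd40 run whose stretch is printed above had 6 CpGs at 3.23% and 5.32% in B cells and 49.3% and 59.9% in T cells. Tnfrsf17, with its methylated promoter, had 2 short runs low in B cells within the gene, 1 of 5 CpGs (B cells 9.20% and 13.1%, T cells 71.4% and 71.3%) and 1 of 4 CpGs (8.11% and 6.56% in B cells, 91.0% and 92.3% in T cells). These rest on few reads, and the 95% interval of the first in male B cells, with 61 reads, ran from 6.80% to 23.8%. The longest Tnfrsf13b run, 13 CpGs over 844 bases upstream, was at 8.54% and 7.92% in B cells, and T cells had 96.0% and 96.8%. The run between Tnfrsf4 and Tnfrsf18, the longest of both windows with 21 CpGs over 1124 bases, had B cells at 65.2% and 65.1% and T cells at 2.02% and 4.25%. The longest Tnfrsf1b run, 10 CpGs in an intron 24937 bases past the start, had B cells at 51.8% and 50.7% and T cells at 8.02% and 14.4%. In Tnfrsf9 the longest run, of 19 CpGs, was at 69.7% and 56.7% in B cells and 4.91% and 3.48% in T cells.

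**Figure D5:**
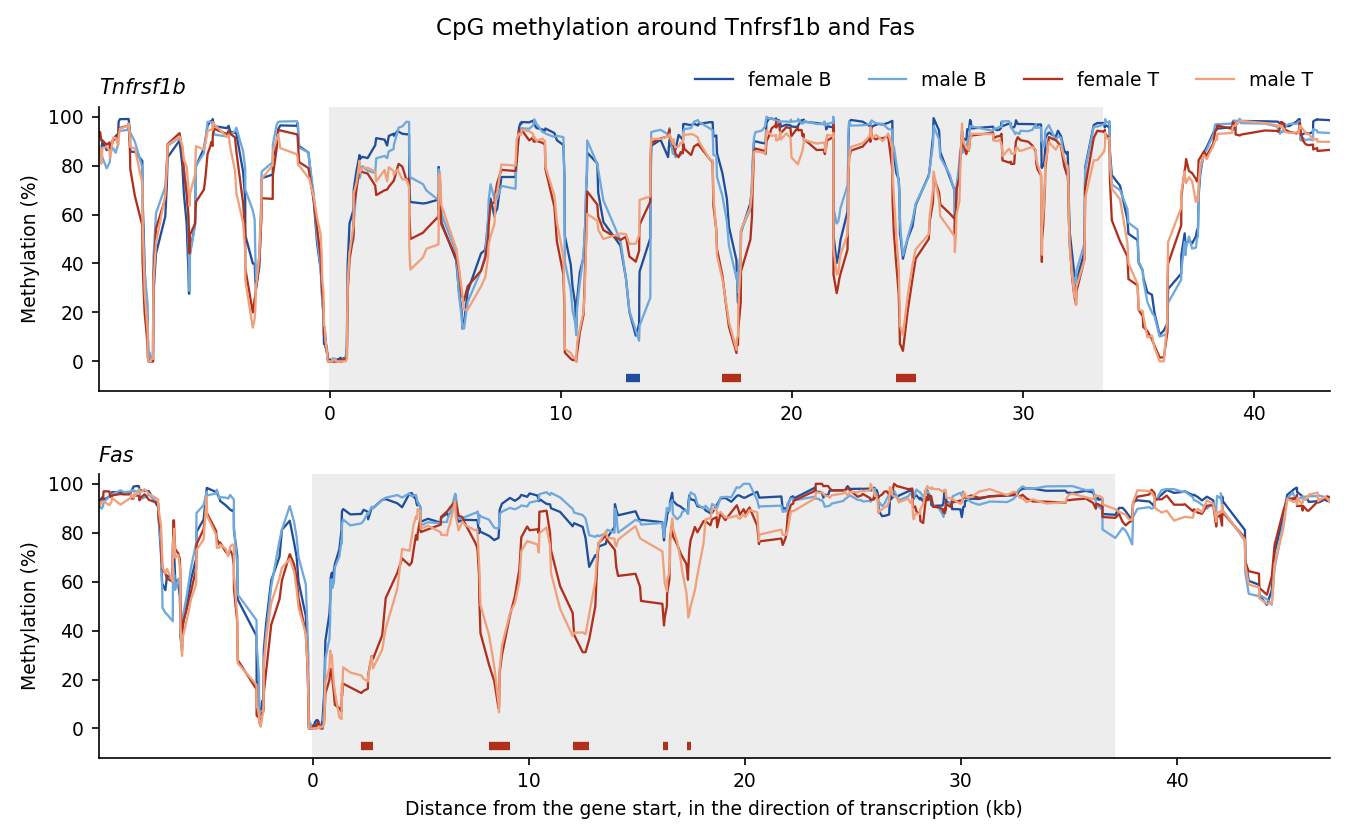
Methylation (%, vertical axis) along the windows of Tnfrsf1b and Fas against distance from the gene start in kb, drawn as for the B cell genes. Both starts lie in troughs common to the 4 libraries, T cells have further troughs within both genes, and in Tnfrsf1b B cells have 1 trough of their own.

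Sex was compared in the same fits. The female minus male difference over windows ran from -3.35 to 1.92 points and no window, promoter or tile of a member was called by edgeR or limma, where 1, 0 and 15 of 10, 10 and 311 had an unadjusted p under 0.05 with edgeR and 1, 0 and 8 with limma. Whether B minus T differed between the sexes was tested in a separate edgeR fit, where this term took the place of sex. Differences between the sexes, including those on X, thus added to its spread. At promoters the common dispersion, a measure of that spread, was 0.0626 against 0.0104 with sex fitted. With X removed it was 0.0143 against 0.0104 at promoters, 0.00262 against 0.00163 over windows and 0.00856 against 0.00899 at tiles. In the fit with X no member window, promoter or tile was called, with 0, 0 and 15 at an unadjusted p under 0.05. A fit blunted in this way cannot show that the sexes agree. Over the genome, sex was called at 1.68% of windows, 1.99% of promoters and, without X, 0.609% of windows, no promoter and 0.00127% of tiles, and the sexes differed in B minus T at no window or promoter and at 0.0017% of tiles. The B minus T difference had the same sign in the female and the male pair at all 10 promoters and at 8 of the 10 windows, the exceptions being Tnfrsf17 and Cd40, which as unweighted means were lower in B cells in both sexes.

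The rest of the pathway was read at promoters from lists of other receptors, ligands and adaptors. Of 18 other TNF receptor genes none was called at its promoter by edgeR or limma, 4 passed the adjusted p and 6 an unadjusted p under 0.05, and the differences ran from -8.12 to 11 points. None of 18 adaptor and signalling genes was called at its promoter, where 6 passed the adjusted p and 8 the unadjusted one. Of 18 ligand genes, 9 passed the adjusted p and 2 were called, beside 19.9% and 1.37% of all promoters. By limma's adjusted p 2 receptors, 2 adaptors and 4 ligands passed, with no share over all promoters counted. The called ligands were both found with differences wider than at any member promoter. Fasl, the ligand of FAS on cytotoxic cells, was at 88.1% and 85.3% in B cells, female and male, and 17.4% and 17.9% in T cells (69.1 points, adjusted p = 2.74e-83). Cd40lg, the ligand of CD40 on helper T cells, was at 92.9% and 84.0% in B cells and 40.1% and 1.98% in T cells (67.4 points, adjusted p = 4.07e-47), but lost its call whichever library was left out (adjusted p = 0.186 without female B, 0.0575 without female T, 0.215 without male B and 0.131 without male T). Fasl kept its call in all 4 such fits. Cd40lg lies on X, and its female T cell library stood far above the male one, while the fits that left out a library had no sex term. Both were higher in B cells, whereas the promoter of CD40 itself was low in both cell types.

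Over windows, 2 of 18 other receptors, 7 of 18 ligands and 7 of 18 adaptors were called, beside 17% of all windows. All were higher in B cells but for Tnfsf18, the ligand of GITR, whose window was at 80.7% and 80.2% in B cells and 86.7% and 86.5% in T cells (adjusted p = 9.16e-06). Median differences were 1.87, 3.12 and 3.85 points for receptors, ligands and adaptors.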

How the data were processed

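Per the labels, WGoxBS libraries of splenic B and T cells were mapped to mm10, and the submitters' processing notes name Trim Galore, FastQC and Bismark 0.13.1. The authors deposited, for each CpG with at least 5 reads, its methylation level as a fraction and its read count, 1 value per CpG. How a group's 2 samples relate to its 1 file is not given in the sources used here. The deposited fractions are rounded upwards at 3 decimals, so methylated reads were taken as the whole number at or below fraction times reads. Divided by the reads and rounded up again, this gave back the deposited fraction to all 3 decimals at 100% of CpGs. No value column was left unused.

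Methylated and unmethylated reads were added up, for CpGs that all 4 libraries list, within gene windows, promoters and 1-kb tiles (GENCODE M21, GRCm38) with at least 5 CpGs and 20 reads per library. They were fitted in edgeR 4.0.16 (glmQLFit, glmQLFTest; R 4.3.3) with a term per library, methylation, and cell type and sex on methylation, which leaves 1 residual degree of freedom, so the spread was borrowed from all regions. In the main fits of promoters and tiles the weight on this shared spread was infinite, so a region's own spread did not count. A separate fit tested whether B minus T differed between the sexes, with that term in place of sex. The main fit was tried on simulated counts at autosomal promoters alone, and not at windows or tiles or in the other fits. Windows needed 5 points and promoters and tiles 20 points at an adjusted p under 0.05. Alternatives were limma 3.58.1, other filters, region sizes and CpG rules, and leaving out each library. Fits that left out 1 library had no sex term.

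Members and lists were chosen with earlier results of these data known. All members were named. Per window the widest called tile of each sign, and the longest run per member, were named. The stretches before the starts of Tnfrsf4 and Tnfrsf13b, and the Cd27 tile over the start, were chosen after their values were seen.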

Additional observations from a re-analysis of the deposited data

How the results depend on the processing

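Of 59 alternative values for counts and medians, 52 stayed within 1.5 times (counts) or within the SD between the female and male pair (medians). Of 310 values for single members 286 kept their call or, as unweighted means, stayed within the counting interval, 9 moved beyond it, 9 lost and 6 gained a call. Without a minimum difference 8 promoters passed instead of 3, against 19.9% of all promoters. At tiles 128 passed instead of 64, but the share over all tiles at that rule was not counted, so this number has no background. With at least 50 points in place of 30, 115 single CpGs in place of 190 were higher in B cells and 75 in place of 133 higher in T cells. Unweighted means over CpGs moved the median B minus T difference of the B cell genes from -3.22 to -4.54 points over windows and from -5.33 to -7.23 points at promoters, and that of the T cell genes at promoters from 26.3 to 23.6 points. Leaving out 1 library gave 6 to 8 windows, 2 to 3 promoters and 54 to 70 tiles, and no value of a called member changed sign. Unweighted means turned the uncalled windows of Tnfrsf17 (-3.37 points) and Cd40 (-0.634 points). They also turned the uncalled promoter of Tnfrsf1b from -0.974 points, to 7.59% and 7.90% in female and male B cells and 7.14% and 7.69% in T cells. Fits without X, added after the data were seen, gave 7 to 8 windows, 3 promoters in each and 54 to 70 tiles. A lone library of a cell type was there assumed to vary like the others. By the gene body alone Tnfrsf17 was called (-12.1 points) and Tnfrsf13b and Tnfrsf18 were not. No paired analysis was possible because the groups share no replicate number and have 1 file each. Depth limits single CpGs, with a median of 14 to 17 reads.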

Other observations

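The promoters most like that of Tnfrsf4, by Euclidean distance over the 4 library levels among autosomal promoters outside the gene lists, were those of Gm49322 (6.03 points away), Smyd1, a muscle histone methyltransferase gene (9.77 points), whose promoter overlaps that of the CD8 marker Cd8b1 and so shares its values in part, and Atp6v0d2, a subunit gene of the vacuolar proton pump (10.4 points). At Gm49322 B cells were at 89.1% and 90.2% and T cells at 42.3% and 37.3%. These are likenesses of level over 4 libraries, out of 19728 autosomal promoters.

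Letters of 4 lymphocyte transcription factor motifs were searched on both strands in 300 bases centred on each run. The EBF1 letters, TCCC and GGGA with any 2 bases between them, stood in 1 of the 13 member runs low in B cells, the long run past the end of Tnfrsf13c, and in 0 of the 25 low in T cells, beside 6.85% of 7357 runs low in B cells and 0.294% of 16307 runs low in T cells over the genome and 0.904% of 32851 promoters. The TCF7 or LEF1 letters ATCAAAG stood in 2 and 0 member runs, both in Tnfrsf17, beside 4.17% and 10.6% of all runs. The RUNX letters TGTGGTT stood in 1 and 1, beside 9.45% and 18.8%. The ETS letters GGAAGT stood in 4 and 4, beside 29.6% and 25.4%, among them the runs of Tnfrsf13b before its start and of Cd40 whose stretches are printed above. These are matches of letters, not sites.

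At the second principal start group of Tnfrsf13b, 14080 bases past the first, B cells had 92.2% and 90.6% and T cells 96.1% and 94.1% within 500 bases, differences of -3.93 points in the female and -3.58 points in the male pair, which were not tested.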
